A study of Mus musculus with 20 samples.

Results

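The 2 whole-heart experiments of a study of Kmt2d in mouse heart development were compared with each other: deletion with Mesp1Cre and deletion with Tnnt2::Cre. All whole-heart libraries were taken, 14 of the 20 RNA-seq libraries of the series. For every gene, the mutant minus control difference in Mesp1Cre hearts was set against the same difference in Tnnt2::Cre hearts. The result, on the log2 scale, is called the interaction, and a positive interaction means that the mutant to control ratio was higher in Mesp1Cre. The question is which genes responded to the loss of Kmt2d in one line and not in the other, or in opposite ways.

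Mutants were Cre; Kmt2d fl/fl; mTmG/+ embryos of strain C57BL/6. Controls, which the labels call WT, carried the same Cre, 1 floxed Kmt2d allele and the same mTmG reporter, so that they were heterozygous for the deletion in Cre-expressing cells. There were 4 mutant and 4 control Mesp1Cre libraries, labelled E9.0, and 3 mutant and 3 control Tnnt2::Cre libraries, labelled E11.5, although the protocols state E11.5 for every heart. The paper gives E9.0 for the Mesp1Cre and E11.5 for the Tnnt2::Cre hearts, and these stages were followed here. Mesp1Cre acts in early mesoderm, whose descendants include the myocytes and many of the other cells of the heart, whereas Tnnt2::Cre acts in cardiomyocytes, so that a whole Tnnt2::Cre heart still held cells with an intact allele. No label says that hearts were pooled. Stage, Cre line and the codes in the library names, which the labels do not explain, changed together and cannot be told apart in any interaction given here. Nothing says that libraries of a group were more than separate samples, so p-values measure the spread between these libraries.

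KMT2D is a histone H3 lysine methyltransferase that marks enhancers and promoters of genes active in a differentiating lineage. Embryonic heart cells of these stages divide, build ribosomes and mitochondria, and pass from a largely glycolytic to a more oxidative metabolism as the circulation starts. Under low oxygen the factor HIF binds the core RCGTG, where R is A or G, and switches on glycolytic enzymes, mitophagy receptors and histone demethylases. Only its form ACGTG was searched here. MYC and related factors bind the E-box CACGTG, a motif known from ribosome biogenesis genes.

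Libraries held 21727258 to 28790705 assigned reads in Mesp1Cre and 35379996 to 45341870 in Tnnt2::Cre. Cardiomyocyte and endothelial defining markers were present in every library: Tnnt2 lay between 1257 and 2030 reads scaled to library size (CPM) and Cdh5 between 89.2 and 123.6 CPM. The summed erythroid markers ranged from 2834 to 19276 CPM in Mesp1Cre and from 20334 to 166579 CPM in Tnnt2::Cre, where mutants 2 and 3 stood below the other 4 libraries. By Y-linked genes, 4 of 4 mutants and 2 of 4 controls were male in Mesp1Cre, and 1 of 3 mutants and 2 of 3 controls in Tnnt2::Cre. Erythroid content and sex were each added as a covariate, and in a further alternative the erythroid and Y-linked genes were left out, which gave 201 interaction calls with all 187 reported calls among them. In bulk hearts, fewer cells of a type and less RNA per cell cannot be told apart.

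Kmt2d, listed in the table under its older symbol Mll2 (mm9 chromosome 15, 98664934 to 98701614), had CPM of 126, 141, 140 and 129 in the Mesp1Cre mutants and 159, 152, 157 and 148 in their controls. In Tnnt2::Cre it had 111, 117 and 120 CPM in mutants and 163, 154 and 124 CPM in controls. Mutants lay below the controls of their line in both, without overlap, and the interaction was 0.14 ± 0.13 (log2, SE; adjusted p = 0.64). These reads come from the whole gene, and the deleted exons were not counted apart. Here and throughout, adjusted p is from edgeR's quasi-likelihood test with Benjamini-Hochberg adjustment over the 17658 genes tested.

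The interaction was called at an adjusted p under 0.05 for 187 genes, 1.06% of those tested. Of these, 86 (0.487%) were higher and 101 (0.572%) lower in Mesp1Cre than in Tnnt2::Cre. The effect of deletion itself was called for 2444 genes in Mesp1Cre (13.8%), 1340 of them up (7.59%) and 1104 down (6.25%), and for 25 in Tnnt2::Cre (0.142%), 7 up (0.0396%) and 18 down (0.102%). Thus 2429 genes passed in Mesp1Cre but missed in Tnnt2::Cre, and yet the difference between the lines was itself called for 167 of them. At an unadjusted p under 0.05, 2769 genes (15.7%) differed between the lines and 1441 (8.16%) changed in Tnnt2::Cre. The 25 Tnnt2::Cre calls became 12 without Tnnt2::Cre mutant 3, 348 without Tnnt2::Cre mutant 1 and 188 with DESeq2 in place of edgeR. The number of interaction calls also rested on single libraries: it was 30 without Tnnt2::Cre control 2 and 34 without Tnnt2::Cre mutant 3, and rose to 431 without Mesp1Cre mutant 2. With sex as a covariate it was 43, of which 42 were among the 187. Each of the 187 that could be tested kept its sign under all alternatives.

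**Figure D1:**
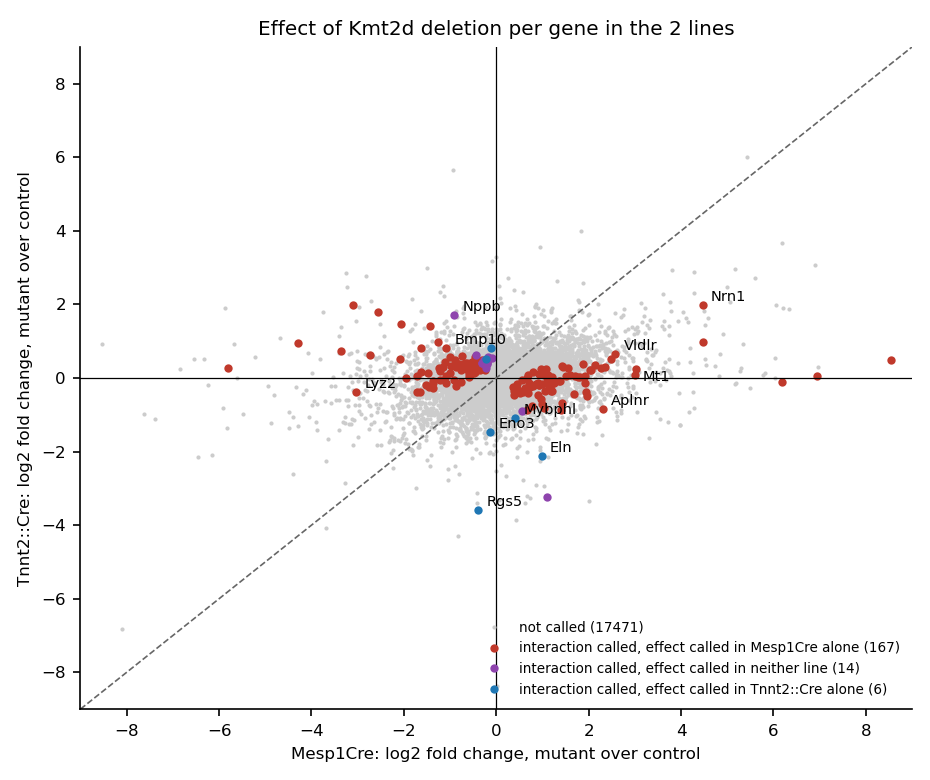
Each point is 1 of 17658 genes, with the log2 mutant over control change in Mesp1Cre on the horizontal axis and in Tnnt2::Cre on the vertical axis. The dashed line marks equal change. Of the 187 coloured genes, 167 were called in Mesp1Cre alone, 6 in Tnnt2::Cre alone and 14 in neither line, and 139 lie in the upper left or lower right quadrants.

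The called genes were sorted by their calls within each line. The effect passed in Mesp1Cre alone for 167, in Tnnt2::Cre alone for 6 and in neither line for 14, and no gene passed in both lines, the same way or opposite. For 77 of the 167, the 95% interval of the Tnnt2::Cre effect lay inside a 1.5-fold change either way, and for the other 90 the interval was wider or further from 0. The estimates of the 2 lines had opposite signs for 139 of the 187, against 7915 of the 17658 tested. All 14 genes called in neither line were of opposite sign. With an unadjusted p under 0.05 in each line as well, 69 of the 187 and 158 of all genes (0.895%) had opposite signs. Lower genes were more often of opposite sign: 88 of 101, against 51 of 86 higher genes. The interaction selects for unequal effects, so these counts describe the called genes and support nothing further.

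Promoters of 5 called genes are shown, since HIF targets were among the higher and ribosome biogenesis genes among the lower calls. They were picked for holding a match: of the other called genes looked at, Kdm3a, Ccng2, Vldlr and Nppb had no ACGTG, and Gnl3 and Lyar no CACGTG, in any window. The form GCGTG was not searched, and windows of Kdm3a and Ccng2 hold it, so a window without ACGTG can still hold the HIF core. Mxi1 (ACGTG) and Hspd1 (CACGTG) had a match in some windows and are not shown. No window was found for Loxl2, Bnip3l, Npm1 or Cirh1a. They are RefSeq windows of 250 bases before to 50 after a transcription start (GRCm38.p6, each read on its gene's strand). Capitals mark TGCNCNC, a loose form of the metal response element, in Mt1, ACGTG in Ankrd37 and Ddit4, and CACGTG, which contains ACGTG, in Nop2 and Nmd3, each searched on both strands.
Mt1, chr8:94178839-94179138, plus strand: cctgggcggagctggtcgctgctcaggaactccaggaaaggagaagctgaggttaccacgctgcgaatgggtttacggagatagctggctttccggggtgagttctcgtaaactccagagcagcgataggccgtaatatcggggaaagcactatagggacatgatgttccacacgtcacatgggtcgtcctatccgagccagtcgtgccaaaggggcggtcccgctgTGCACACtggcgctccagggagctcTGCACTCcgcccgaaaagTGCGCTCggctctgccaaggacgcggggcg
Ankrd37, chr8:45999801-46000100, minus strand: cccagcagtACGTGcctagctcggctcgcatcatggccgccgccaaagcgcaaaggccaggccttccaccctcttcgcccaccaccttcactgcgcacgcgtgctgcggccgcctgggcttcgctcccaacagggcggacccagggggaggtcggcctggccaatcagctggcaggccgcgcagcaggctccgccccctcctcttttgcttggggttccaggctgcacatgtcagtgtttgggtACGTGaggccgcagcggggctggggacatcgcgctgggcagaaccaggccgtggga
Ddit4, chr10:59951721-59952020, minus strand: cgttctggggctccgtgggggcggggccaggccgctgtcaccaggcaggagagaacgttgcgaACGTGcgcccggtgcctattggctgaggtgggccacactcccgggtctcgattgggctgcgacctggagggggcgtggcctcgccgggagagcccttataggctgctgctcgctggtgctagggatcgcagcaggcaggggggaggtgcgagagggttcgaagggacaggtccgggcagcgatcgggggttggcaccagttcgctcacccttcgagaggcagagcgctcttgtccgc
Nop2, chr6:125131633-125131932, plus strand: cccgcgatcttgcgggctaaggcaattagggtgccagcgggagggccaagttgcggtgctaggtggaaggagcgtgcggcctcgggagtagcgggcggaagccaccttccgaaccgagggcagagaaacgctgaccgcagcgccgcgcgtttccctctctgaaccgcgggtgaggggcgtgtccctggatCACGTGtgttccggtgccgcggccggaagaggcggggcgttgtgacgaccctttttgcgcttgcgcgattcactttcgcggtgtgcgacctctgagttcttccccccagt
Nmd3, chr3:69721805-69722104, plus strand: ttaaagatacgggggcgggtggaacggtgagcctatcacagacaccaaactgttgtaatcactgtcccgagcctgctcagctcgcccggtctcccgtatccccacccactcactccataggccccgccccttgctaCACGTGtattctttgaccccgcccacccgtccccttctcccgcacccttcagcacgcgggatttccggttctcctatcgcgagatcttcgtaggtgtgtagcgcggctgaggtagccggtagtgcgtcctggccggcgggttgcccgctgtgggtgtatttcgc

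Windows were found for 53 of the 86 higher genes (75 windows) and 60 of the 101 lower genes (74 windows). ACGTG was present in 28.0% of the windows of higher genes, 27.0% of those of lower genes and 24.1% of those of all tested genes. CACGTG was present in 12.2% of the windows of lower genes, 4.00% of those of higher genes and 9.46% of those of all tested genes. In the 12 windows of called HIF targets ACGTG was present in 41.7% and CACGTG in 0%. The 8 windows of called ribosome biogenesis genes had 62.5% and 37.5%, so ACGTG did not mark the HIF targets apart. TGCNCNC was in 51.0% of all 32851 windows, so its 3 matches in Mt1 are shown as letters only. None of these matches is evidence of binding.

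Genes that rose in Mesp1Cre and not detectably in Tnnt2::Cre included stress and low-oxygen genes, and Mt1 had the smallest p among them. Mt1, a metal-binding metallothionein, had 53.02, 37.8, 36.0 and 35.8 CPM in Mesp1Cre mutants and 5.87, 5.87, 3.26 and 5.32 CPM in controls. In Tnnt2::Cre it had 75.0, 61.5 and 44.2 CPM in mutants and 73.5, 49.9 and 46.3 CPM in controls. The Mesp1Cre groups were thus far apart while the Tnnt2::Cre groups overlapped, at levels that 1 of the 8 Mesp1Cre libraries reached. The effects were 3.00 ± 0.23 and 0.09 ± 0.23, and the interaction was 2.91 ± 0.32 (adjusted p = 0.00135), called under all 32 alternatives.

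Ddit4, an inhibitor of mTORC1 signalling, went from 1.40, 1.79, 2.44 and 0.880 CPM in Mesp1Cre controls to 16.6, 10.8, 15.4 and 10.6 CPM in mutants. In Tnnt2::Cre its 6 libraries lay between 2.42 and 6.48 CPM with overlapping groups. Its interaction was 2.80 ± 0.50 (adjusted p = 0.0165). Ankrd37, an ankyrin-repeat gene induced by HIF, had 34.5, 13.3, 19.4 and 14.5 CPM in Mesp1Cre mutants and 3.75 to 4.32 CPM in controls, and in Tnnt2::Cre 4.62, 9.21 and 3.89 CPM against 3.97 to 5.59 CPM (interaction 2.04 ± 0.46, adjusted p = 0.0437). Ankrd37 shares exonic bases with Lrp2bp and Ufsp2 on the other strand, and no source says whether strand was counted. Tnnt2::Cre mutant 2 was the highest Tnnt2::Cre library for both Ddit4 and Ankrd37.

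The histone demethylase Kdm3a and the mitophagy receptor Bnip3l showed the same division. Kdm3a had 251, 180, 175 and 156 CPM in Mesp1Cre mutants, 79.0 to 93.0 CPM in controls and 90.3 to 115 CPM over the 6 Tnnt2::Cre libraries (interaction 1.14, adjusted p = 0.0152). Bnip3l had 427, 319, 381 and 345 CPM in Mesp1Cre mutants, 160 to 175 CPM in controls and 159 to 217 CPM in Tnnt2::Cre (interaction 1.04, adjusted p = 0.0104). Loxl2, a collagen crosslinking enzyme and HIF target, was of opposite sign: it rose by 1.04 ± 0.14 in Mesp1Cre, while its estimate in Tnnt2::Cre was -0.34 ± 0.16 (interaction 1.39 ± 0.22, adjusted p = 0.0104), and this call held under all 32 alternatives.

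Over the list of 56 HIF targets, 9 were called higher in the interaction and 0 lower, against 86 and 101 of 17658. In Mesp1Cre 43 rose and 1 fell, against 7.59% and 6.25% of all genes tested, and the median effect was 1.17. In Tnnt2::Cre edgeR called 0 in either direction, but 24 had an unadjusted p under 0.05, the median was 0.46 and 45 of 56 estimates were above 0. The mean level of the list stood 1.63, 1.18, 1.39 and 1.15 above the control mean in the Mesp1Cre mutants (log2). In the Tnnt2::Cre mutants it stood 0.08, 0.87 and 0.24 above, and mutant 2 was again the highest. The mean log2 CPM of erythroid genes ran in the reverse order in these mutants, at 7.88, 5.51 and 6.44, against 7.49 to 8.20 in their controls. With erythroid content as a covariate the Tnnt2::Cre median of the HIF targets was 0.08 and 23 were called in the interaction, and with sex as a covariate 4 were called. With 1 library left out, the called members ranged from 3 (without Tnnt2::Cre mutant 3 or control 2) to 26 (without mutant 2, where the Tnnt2::Cre median was 0.16), and the interaction median, 0.72 as reported, from 0.53 (without mutant 1) to 1.04. Of 22 genes of glycolysis 14 rose in Mesp1Cre, the medians were 0.61 and 0.45, and 1 gene, Eno3, was called in the interaction. With erythroid content as a covariate these medians were 0.49 and 0.16 with 5 genes called, and with 1 library left out the interaction median ranged from 0.02 (without Tnnt2::Cre control 3) to 0.40 (without Tnnt2::Cre mutant 2, with 4 called).

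**Figure D2:**
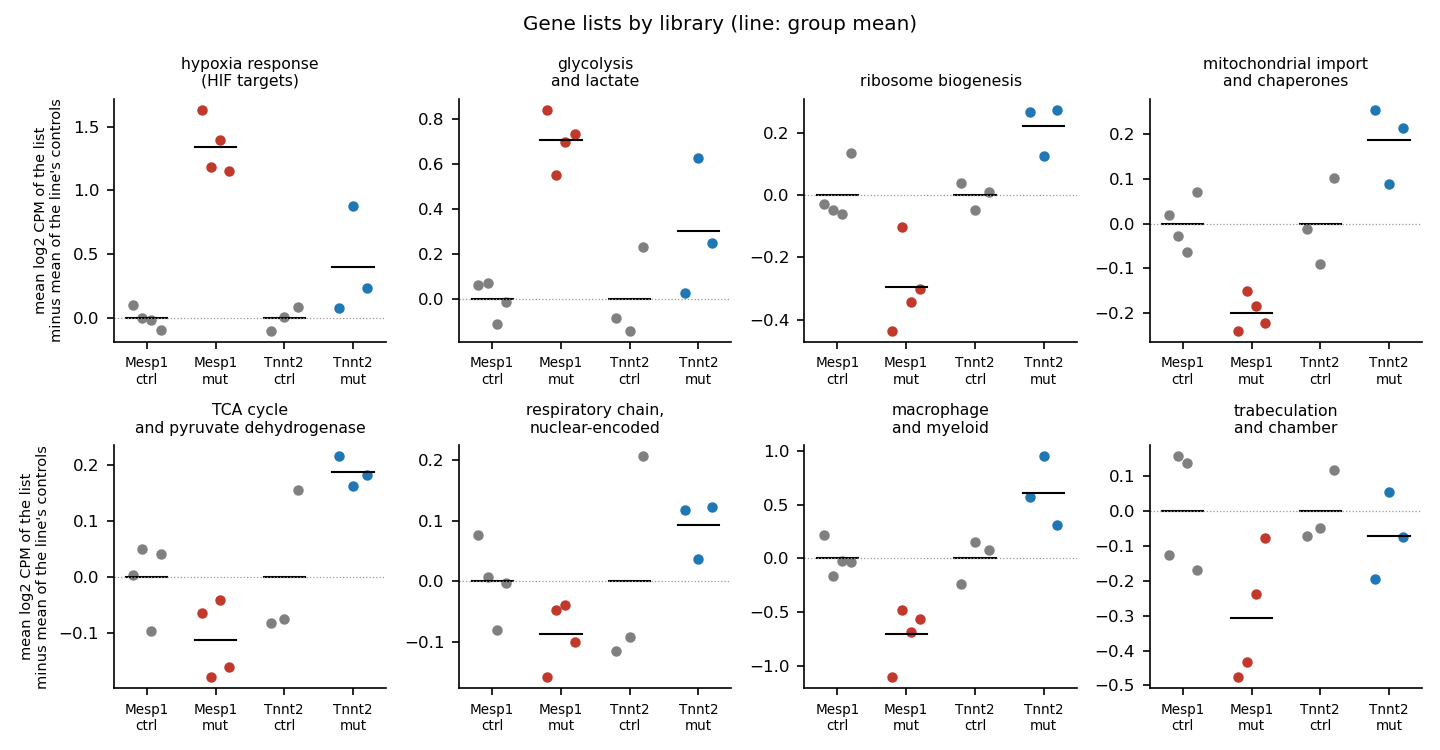
Each point is 1 library, and its height is the mean log2 CPM of a gene list minus the mean of the controls of the same line. Grey points are controls, red Mesp1Cre mutants, blue Tnnt2::Cre mutants, and the lines are group means. HIF targets stood between 1.15 and 1.63 above controls in Mesp1Cre mutants and between 0.08 and 0.87 in Tnnt2::Cre mutants, whereas ribosome biogenesis lay below controls in the first and above them in the second.

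Genes of the vascular and endocardial lining were also among the higher calls. Kdr, the main VEGF receptor of endothelium, had 185, 157, 180 and 179 CPM in Mesp1Cre mutants and 104, 109, 94.2 and 109 CPM in controls. In Tnnt2::Cre it had 75.9, 92.9 and 84.2 CPM in mutants and 99.9, 90.1 and 97.9 CPM in controls, with overlap. The interaction was 0.94 ± 0.13 (adjusted p = 0.00692) and was called under all 32 alternatives. Sox7, an endothelial transcription factor, rose by 1.20 ± 0.17 in Mesp1Cre with an estimate of 0.02 ± 0.19 in Tnnt2::Cre. Aplnr, the apelin receptor, had 34.0, 32.7, 33.4 and 23.1 CPM in Mesp1Cre mutants against 11.7, 2.81, 9.36 and 0.880 CPM in controls, and its interaction of 3.15 ± 0.72 was close to the threshold (adjusted p = 0.0470). Of 36 endothelial genes these 3 were called in the interaction, 13 rose and 3 fell in Mesp1Cre, and edgeR called 0 in Tnnt2::Cre, with 3 at an unadjusted p under 0.05. Over all genes tested the Tnnt2::Cre shares were 0.142% and 8.16%, with 1.06% called in the interaction and 7.59% up and 6.25% down in Mesp1Cre. The summed list was 1374 to 1560 CPM in Mesp1Cre mutants and 1094 to 1223 CPM in controls, against 1159 to 1428 and 1189 to 1387 CPM in Tnnt2::Cre.

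Other higher genes came from several processes. Nrn1, which encodes a neuronal surface protein, was the named gene with the largest Mesp1Cre rise, from 2.44 to 7.06 CPM in controls to 138, 67.9, 108 and 80.1 CPM in mutants. It was also higher in Tnnt2::Cre mutants, at 8.08, 21.2 and 9.05 CPM against 2.32, 2.68 and 4.75 CPM, so the interaction of 2.49 ± 0.55 is a difference in size and not in direction. Vldlr, a lipoprotein receptor, likewise had estimates above 0 in both lines, 2.57 ± 0.29 and 0.65 ± 0.32. Bcl11a, a zinc finger repressor, rose by 1.93 ± 0.29 in Mesp1Cre from 1.48 to 5.74 CPM in controls and was already at 34.8 to 41.3 CPM in Tnnt2::Cre controls. The G1 brake Rb1 (interaction 1.53 ± 0.31; shares bases with Lpar6 and Rcbtb2 on the other strand), the chloride and proton exchanger Clcn3 (1.05 ± 0.22) and the pro-apoptotic Bcl2l11 (0.94 ± 0.22) rose in Mesp1Cre alone. Several of these calls were fragile: of 32 alternatives, 13 called Bcl2l11, 16 Ankrd37, 17 Sox7, 17 Vldlr, 18 Nrn1, 19 Clcn3, 19 Aplnr and 20 Bcl11a.

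In the list of 31 ATF4 and stress genes, 17 rose and 1 fell in Mesp1Cre, 0 were called in Tnnt2::Cre by edgeR (6 at an unadjusted p under 0.05), and Vldlr alone was called in the interaction. Of 45 genes of DNA replication, 16 fell and 3 rose in Mesp1Cre, 0 were called in Tnnt2::Cre (2 at an unadjusted p under 0.05), and the interaction was called for Rb1 alone, with 12 members at an unadjusted p under 0.05. Of 24 p53 and apoptosis genes, Bcl2l11 was the 1 called. Over all genes tested, 7.59% rose and 6.25% fell in Mesp1Cre, and 1.06% were called in the interaction. In Tnnt2::Cre 0.142% were called and 8.16% had an unadjusted p under 0.05, so 0 calls there are no result about lists of this size. The calls of these lists in Mesp1Cre were mostly not accompanied by a called difference between the lines. The same held for 2277 of the 2444 Mesp1Cre calls over all genes, so this does not set the lists apart.

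The effect was called in Tnnt2::Cre alone for 6 genes. Rgs5, a regulator of G protein signalling found in pericytes and outflow tract, had 2.57, 3.60 and 3.29 CPM in Tnnt2::Cre mutants and 24.9, 39.4 and 50.2 CPM in controls. In Mesp1Cre the groups overlapped across a wide range, with 15.9, 19.1, 10.003 and 49.8 CPM in mutants and 37.1, 16.1, 47.0 and 24.8 CPM in controls. Its interaction was 3.20 ± 0.64 (adjusted p = 0.0292), the largest of this class, and was called under 22 of 32 alternatives. The Mesp1Cre effect was -0.40 ± 0.40, an error too wide to place it.

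Eno3, the muscle enolase of glycolysis, was the most evenly separated. It had 29.2, 38.3 and 37.4 CPM in Tnnt2::Cre mutants and 101, 84.0 and 104 CPM in controls, a fall of 1.46 ± 0.11 on the log2 scale. In Mesp1Cre it had 122, 113, 133 and 127 CPM in mutants and 136, 132, 128 and 147 CPM in controls, overlapping groups with an estimate of -0.14 ± 0.10. The interaction of 1.33 ± 0.15 (adjusted p = 0.00135) was called under all 32 alternatives. Most other glycolytic genes went the other way in Tnnt2::Cre: 20 of 22 estimates there were above 0.

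Mybphl, a myosin-binding protein of atrial and conduction myocytes, had 6.95, 9.70 and 7.40 CPM in Tnnt2::Cre mutants and 20.01, 15.0 and 16.3 CPM in controls. In Mesp1Cre the mutants had 27.7, 18.8, 25.5 and 23.3 CPM and the controls 17.4 to 19.4 CPM. Its interaction of 1.498 ± 0.22 (adjusted p = 0.00900) held under all 32 alternatives, and the gene shares bases with Gm12522 on the other strand. It was the only called member among 43 sarcomere and Z-disc genes, of which 10 fell and 2 rose in Mesp1Cre and 1 fell in Tnnt2::Cre. The shares over all genes tested were 1.06% in the interaction, 6.25% and 7.59% in Mesp1Cre and 0.102% in Tnnt2::Cre. Gyk, the glycerol kinase, rose in Tnnt2::Cre, from 17.2, 16.8 and 18.8 to 31.9, 29.3 and 32.4 CPM, with Mesp1Cre libraries between 22.4 and 32.2 CPM in both groups (interaction -0.93 ± 0.18, adjusted p = 0.0255; bases shared with Gm14764).

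Eln, the elastin gene, and Nmd3, an export adaptor of the large ribosomal subunit, complete the class. Eln lay below the level required for naming and is given because the class is small: it had 4.60, 8.40 and 6.14 CPM in Tnnt2::Cre mutants, 15.9, 35.3 and 31.9 CPM in controls, and at most 0.676 CPM in any Mesp1Cre library. Its interaction of 3.10 ± 0.67 therefore sets a fall at E11.5 against a gene hardly detected at E9.0. Nmd3 is described with the ribosome genes.

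**Figure D3:**
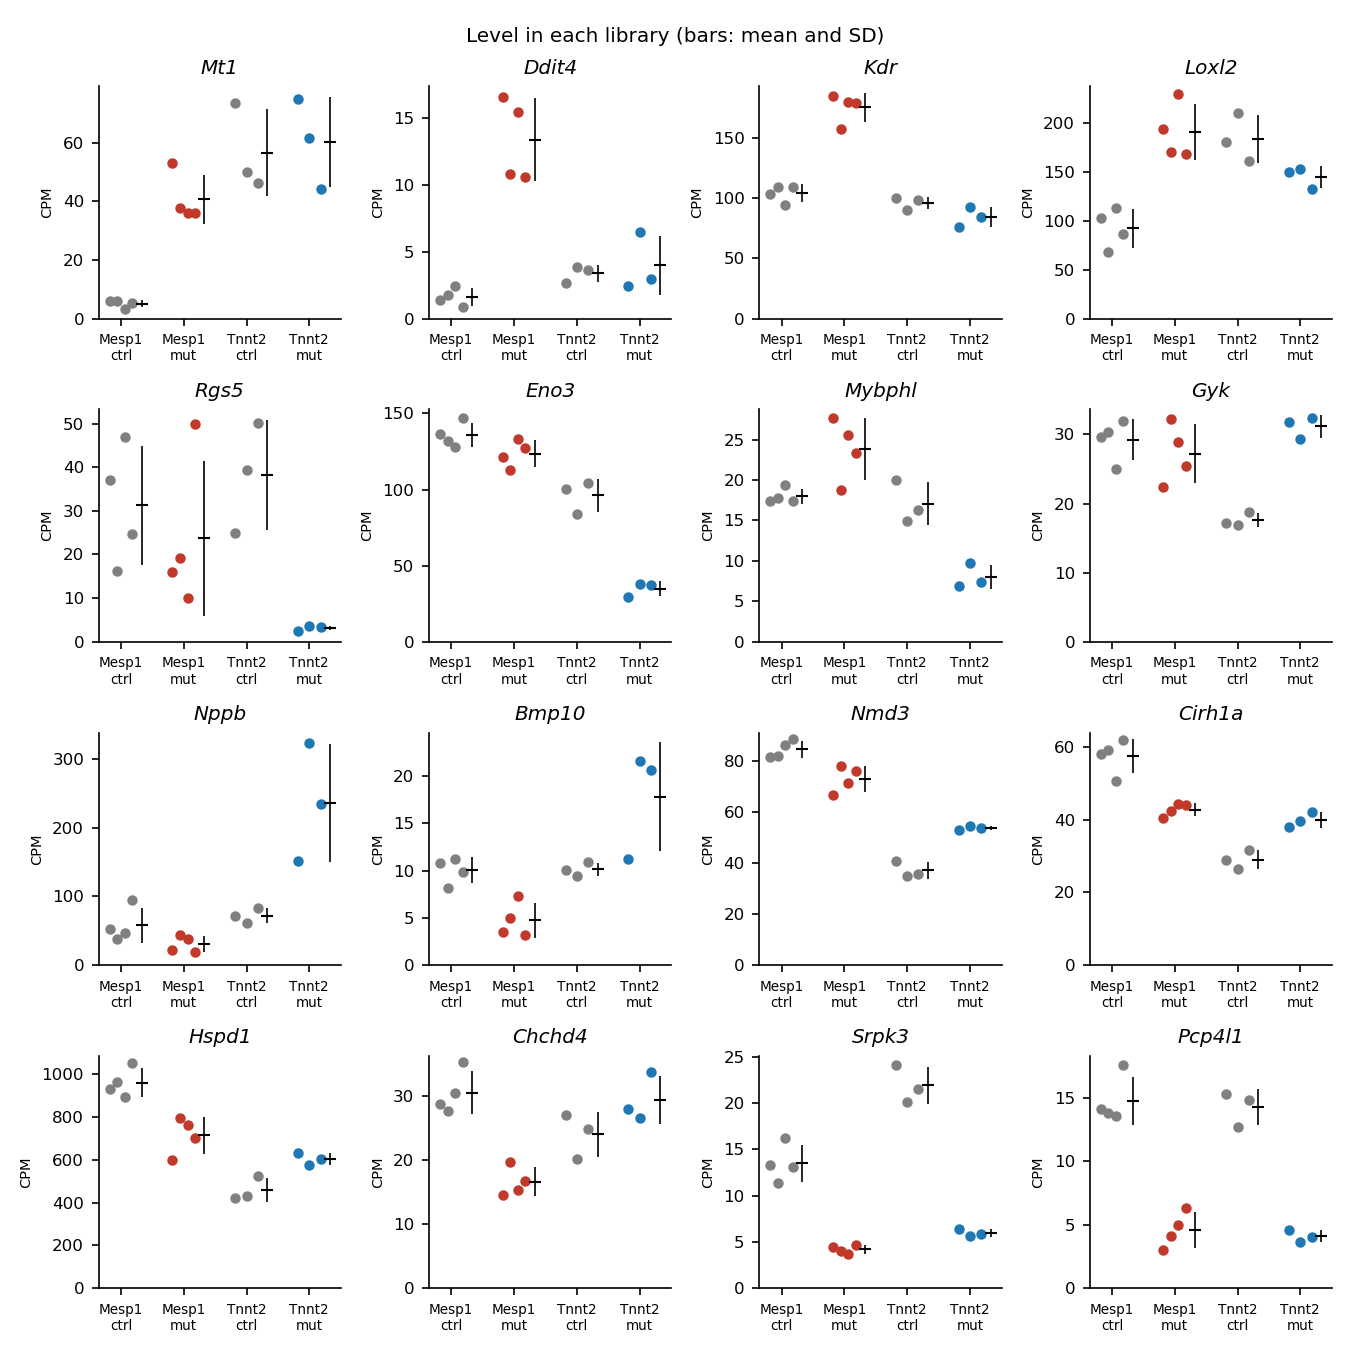
Each panel gives the CPM of 1 gene in each of 14 libraries, in grey for controls, red for Mesp1Cre mutants and blue for Tnnt2::Cre mutants, with the mean and SD of each group as bars. Mt1 and Ddit4 separate in Mesp1Cre only, Rgs5 and Eno3 in Tnnt2::Cre only, and Nmd3, Cirh1a and Hspd1 lie lower in Mesp1Cre mutants and higher in Tnnt2::Cre mutants than in controls, whereas Srpk3 and Pcp4l1 lie lower in both.

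Nppb and Bmp10, genes of the chamber myocardium, had estimates of opposite sign. Nppb encodes the natriuretic peptide BNP and had 151, 323 and 234 CPM in Tnnt2::Cre mutants and 71.01, 61.0 and 82.7 CPM in controls. In Mesp1Cre it had 22.2, 43.2, 38.6 and 18.9 CPM in mutants and 52.6, 38.2, 46.2 and 94.3 CPM in controls, with 1 control inside the mutant range. Neither effect passed alone (1.72 ± 0.35 and -0.91 ± 0.30), but the interaction of -2.63 ± 0.46 did (adjusted p = 0.0159), and 29 of 32 alternatives called it.

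Bmp10, the growth factor of trabecular myocardium, had 3.51, 4.97, 7.29 and 3.17 CPM in Mesp1Cre mutants and 10.8, 8.15, 11.2 and 9.88 CPM in controls. In Tnnt2::Cre it had 11.2, 21.6 and 20.6 CPM in mutants and 10.1, 9.45 and 10.9 CPM in controls. It fell in Mesp1Cre, its Tnnt2::Cre estimate was 0.82 ± 0.28, and the interaction was -1.90 ± 0.38 (adjusted p = 0.0274). Erbb3, a neuregulin receptor, was the third called gene among 20 genes of trabeculation, with estimates below 0 in both lines (-1.72 and -0.39). The list as a whole did not share the order of Nppb and Bmp10: 6 of its 20 estimates were below 0 in Mesp1Cre and above 0 in Tnnt2::Cre, and its medians were -0.12 in Mesp1Cre and -0.00051 in Tnnt2::Cre.

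Other genes of opposite sign were named by the size of their interaction. Vnn1, a pantetheinase, had 7.40, 11.9, 14.2 and 6.37 CPM in Mesp1Cre mutants against 22.4 to 26.5 CPM in controls, and 12.9, 9.65 and 16.6 CPM in Tnnt2::Cre mutants against 5.28, 6.42 and 8.26 CPM. The groups did not overlap in either line, and the interaction of -2.23 ± 0.36 (adjusted p = 0.0111) was called under all 32 alternatives. Abra, an actin-binding protein of striated muscle, had an interaction of -1.58 ± 0.31. Cxcl12, a chemokine, and Ypel3, a gene of growth arrest, went the other way, each higher in Mesp1Cre mutants (0.998 and 1.04) with negative estimates in Tnnt2::Cre (-0.72 and -0.80).

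Calcium and ion channel genes gave 2 further calls of this kind, Cacna1h (called under 22 of 32 alternatives) and Cacna2d2 (23 of 32). Cacna1h, a T-type calcium channel, had 26.5, 43.1 and 33.1 CPM in Tnnt2::Cre mutants and 70.7, 57.6 and 63.5 CPM in controls, and 183, 84.0, 137 and 116 CPM in Mesp1Cre mutants against 93.6, 102, 72.8 and 84.0 CPM (interaction 1.47 ± 0.30, adjusted p = 0.0307; bases shared with Tpsg1). Cacna2d2, an auxiliary calcium channel subunit, rose in Mesp1Cre by 0.69 ± 0.14 with an estimate of -0.40 ± 0.17 in Tnnt2::Cre (adjusted p = 0.0291; bases shared with Gm17141). These were the only calls among 47 calcium-handling genes, of which 12 rose and 11 fell in Mesp1Cre and 3 fell in Tnnt2::Cre, and Clcn3 was the 1 call among 49 ion channels and pumps. The shares over all genes tested were 1.06% called in the interaction, 7.59% up and 6.25% down in Mesp1Cre, and 0.102% down in Tnnt2::Cre. So few interaction calls are no result about lists of this size. Akap6, an anchoring protein of the myocyte nuclear envelope, fell by 1.21 ± 0.19 in Mesp1Cre and had overlapping groups in Tnnt2::Cre (interaction -1.41 ± 0.28).

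The lower calls held many genes that make ribosomes. Nmd3 had 52.9, 54.3 and 53.6 CPM in Tnnt2::Cre mutants and 40.9, 34.8 and 35.8 CPM in controls. In Mesp1Cre it had 66.6, 78.0, 71.2 and 76.0 CPM in mutants and 81.4, 82.0, 86.1 and 88.4 CPM in controls. The groups did not overlap in either line and lay in opposite order, with an interaction of -0.74 ± 0.12 (adjusted p = 0.0111).

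Cirh1a, a component of the small subunit processome, had 40.3, 42.5, 44.2 and 44.0 CPM in Mesp1Cre mutants and 58.1, 59.0, 50.7 and 61.7 CPM in controls, and 38.0, 39.5 and 42.1 CPM in Tnnt2::Cre mutants against 28.8, 26.4 and 31.6 CPM (interaction -0.89 ± 0.14, adjusted p = 0.0104). Nop2, a methyltransferase of nucleolar rRNA, had an interaction of -0.82 ± 0.16. The nucleolar proteins Npm1 and Gnl3 were called in the interaction with no call in either line; their Mesp1Cre estimates were -0.09 and -0.18 and their Tnnt2::Cre estimates 0.54 and 0.57. Gpatch4, a nucleolar protein, had the same order (interaction -1.38 ± 0.28, called under 22 of 32 alternatives).

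A list of ribosome biogenesis genes was written after these calls were seen, so its counts are a description. Of 93 tested, 12 were called lower in the interaction and 0 higher. In Mesp1Cre 31 fell and 0 rose, with a median of -0.29, and in Tnnt2::Cre 1 rose and 0 fell, with 31 at an unadjusted p under 0.05 and a median of 0.23. Estimates were below 0 in Mesp1Cre and above 0 in Tnnt2::Cre for 76 of 93 (81.7%), against 3965 of 17658 (22.5%) over all genes. With each library left out in turn this number stayed between 70 and 77, although the number of its members called ranged from 1 to 31. The mean of the list was at 0.27, 0.13 and 0.27 from the control mean in the Tnnt2::Cre mutants and at -0.44, -0.10, -0.34 and -0.30 in the Mesp1Cre mutants. The 77 cytosolic ribosomal protein genes tested did not share this: 0 were called in the interaction, 4 had an unadjusted p under 0.05, and the medians were 0.04 and 0.06.

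Some nuclear genes of mitochondria were also called lower. Hspd1, the matrix chaperonin, had 599, 795, 761 and 700 CPM in Mesp1Cre mutants and 930, 964, 893 and 1053 CPM in controls. In Tnnt2::Cre it had 630, 577 and 604 CPM in mutants and 424, 430 and 524 CPM in controls, and the interaction was -0.82 (adjusted p = 0.0162; the gene shares bases with Hspe1). Chchd4, an import factor of the intermembrane space, fell by 0.88 in Mesp1Cre and had an estimate of 0.29 in Tnnt2::Cre. Cycs, cytochrome c, had an interaction of -0.92 ± 0.20 (adjusted p = 0.0414), called under 20 of 32 alternatives. It was the 1 called gene among 52 nuclear genes of the respiratory chain, where 1.06% were called over all genes tested.

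Of 42 genes of mitochondrial import and chaperones, a list also written after the calls were seen, 7 were called lower and 0 higher, and 32 (76.2%) had estimates below 0 in Mesp1Cre and above 0 in Tnnt2::Cre. For 20 genes of the TCA cycle and pyruvate dehydrogenase, likewise added, the numbers were 3, 0 and 15 (75.0%). The called genes were Dlst, Pdha1 and Idh3a. With 1 library left out, 0 to 10 import genes and 0 to 6 TCA genes were called, with edgeR calling 0 of either list without Tnnt2::Cre mutant 3 (18 and 12 at an unadjusted p under 0.05) or without Tnnt2::Cre control 2 (16 and 12). For the respiratory chain, 41 of 52 (78.8%) had this order, but with medians of only -0.12 and 0.12. Of the Mesp1Cre calls in the respiratory chain 6 fell and 1 rose. On log2(FPKM + 0.1) estimates below 0 in Mesp1Cre and above 0 in Tnnt2::Cre were held by 23 of 52 respiratory chain, 23 of 42 import and 11 of 20 TCA genes, and the Mesp1Cre median of the respiratory chain turned to 0.024, where the Mesp1Cre median of all genes also moved, from 0.01 to 0.15. On the same scale 71 of 93 ribosome biogenesis genes had this order.

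Transcripts of the mitochondrial genome itself differed more. They took 13.3%, 15.7%, 14.3% and 14.1% of the reads of Mesp1Cre mutants and 23.2%, 23.2%, 23.4% and 22.0% of those of controls. In Tnnt2::Cre they took 21.7%, 23.2% and 23.9% in mutants and 22.5%, 19.5% and 25.1% in controls. The mean fell from 23.0% ± 0.62 (SD, n = 4) to 14.3% ± 1.02 (SD, n = 4) in Mesp1Cre, with no overlap (two-sided exact permutation test, p = 0.0286, the smallest that 4 against 4 allows). In Tnnt2::Cre the means were 22.4% ± 2.79 and 22.9% ± 1.09 (SD, n = 3; exact p = 0.80, where 3 against 3 cannot go below 0.10). The difference between the 2 changes was -9.14 percentage points, with p = 0.0114 when mutant and control labels were exchanged within each line (1400 relabellings, exact test). That exchange assumes no effect in either line, so a change in Mesp1Cre alone can make p small. It does not test whether the 2 changes were equal.

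By gene, 11 of 38 mitochondrial genome entries were called lower and 3 higher. In Mesp1Cre 14 of the 38 fell and 11 rose. Interaction estimates lay above 0 for 19 and below 0 for 19, with a median of -0.098. The abundant entry AY172335.24 (bases 70 to 1024), which is not a protein gene, had a mean of 60464 CPM in Mesp1Cre controls and 28361 CPM in mutants. The mitochondrial genome share above is therefore not one of protein genes alone. Among the 13 protein genes 7 fell and 2 rose in Mesp1Cre, and 5 were called lower in the interaction. These 5 included mt-Co1, a cytochrome oxidase subunit, with 2752, 4199, 4216 and 3461 CPM in Mesp1Cre mutants, 7221 to 7366 CPM in controls and 6044 to 8215 CPM over Tnnt2::Cre. mt-Cytb, cytochrome b, had 724, 1428, 1225 and 1114 CPM against 2773 to 3020 CPM in Mesp1Cre and 1228 to 1724 CPM in Tnnt2::Cre. With these genes left out before scaling, an alternative added after the data were seen, 166 genes were called, all of them among the 173 called genes that remained.

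**Figure D4:**
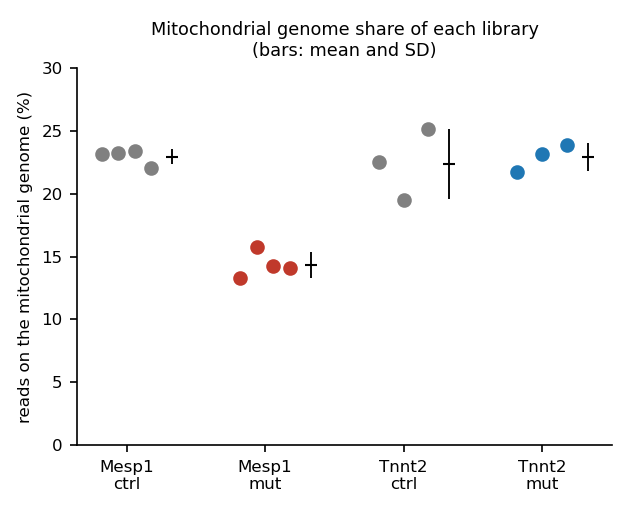
The vertical axis gives the percentage of assigned reads on the mitochondrial genome in each of 14 libraries, with the mean and SD of each group as bars. The 4 Mesp1Cre mutants lie between 13.3% and 15.7%, and the other 10 libraries between 19.5% and 25.1%.

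Macrophage genes gave large and poorly counted differences. Lyz2, lysozyme of myeloid cells, had 0.888, 1.22, 0.561 and 1.06 CPM in Mesp1Cre mutants and 4.90, 6.35, 5.58 and 14.003 CPM in controls, against 22.1 to 28.1 CPM in Tnnt2::Cre mutants and 29.7 to 33.4 CPM in controls. It fell by 3.03 ± 0.32 in Mesp1Cre, its Tnnt2::Cre estimate was -0.38 ± 0.29 and the interaction was -2.66 ± 0.43 (adjusted p = 0.0116). Of 27 macrophage and myeloid genes 3 were called lower, 9 fell and 2 rose in Mesp1Cre, and 15 had estimates below 0 in Mesp1Cre and above 0 in Tnnt2::Cre. The shares over all genes tested were, in this order, 0.572%, 6.25%, 7.59% and 22.5%. The summed list was 8.75 to 19.2 CPM in Mesp1Cre mutants, 22.6 to 33.2 CPM in controls, 107.9 to 154.1 CPM in Tnnt2::Cre mutants and 95.2 to 111.6 CPM in controls. Of the defining markers, C1qa was at 0 in all 8 Mesp1Cre libraries and Csf1r between 0.354 and 1.64 CPM, so these values lie close to the limit of detection at E9.0.

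For the other lists fewer calls were made. Rgs5 and Eln, given above, were the 1 call each among 29 genes of the second heart field and outflow tract and 29 of cushion and valve mesenchyme. For 12 lists (cardiac transcription factors, epicardium, smooth muscle, erythroid cells, platelets, foregut, liver and neural tissue, mitosis, immediate early genes, fatty acid oxidation, cholesterol synthesis, the KMT2C and KMT2D complex, and Y-linked genes), edgeR called 0 of 261 genes in the interaction and 42 had an unadjusted p under 0.05. Over all 17658 genes tested, 187 (1.06%) were called and 2769 (15.7%) had an unadjusted p under 0.05, so these counts do not set the 12 lists apart. Medians of the interaction in these lists ran from -0.68 in the epicardial to 1.86 in the Y-linked genes, which follow the sex of the libraries. Erythroid genes had nearly equal medians, -1.02 in Mesp1Cre and -0.99 in Tnnt2::Cre, and platelet genes had medians of 1.37 and 0.25, with 8 rises in Mesp1Cre.

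Against these differences stood a small set called in both lines. Of the 25 Tnnt2::Cre calls, 15 were also called in Mesp1Cre, all in the same direction, and not in the interaction. A missing interaction call does not show equal effects, since the test recovered 41 of 100 simulated 2-fold changes. Srpk3, a muscle splicing kinase, had 4.48, 3.99, 3.66 and 4.69 CPM in Mesp1Cre mutants against 13.3, 11.3, 16.2 and 13.0 CPM, and 6.402, 5.63 and 5.89 CPM in Tnnt2::Cre mutants against 24.1, 20.1 and 21.5 CPM. Its interaction was 0.20 with a 95% interval from -0.26 to 0.65. Pcp4l1, a calmodulin-binding peptide gene, had an interval from -0.50 to 0.74. The rises Dusp4 and Phlda1, which act on or follow MAP kinase signalling, and the DNA-binding gene Obfc2a had intervals from -0.68 to 0.12, -0.61 to 0.12 and -0.74 to 0.23. Over all 17658 genes the 2 effects correlated at r = 0.247 (Spearman correlation 0.176), a value across genes of 1 tissue, which are not independent.

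Called genes differed from the rest in measured properties. Higher genes had a median length of 4550.5 bp and lower genes one of 2596 bp, against 2817 bp over all genes tested, and both sets were more abundant than the rest (median average log2 CPM 5.01 and 5.61 against 3.27). A test calls well-counted genes more easily, and these medians were not compared at matched counts. Exonic GC had medians of 49.2% and 46.8% against 49.6%. With a trend on length and GC removed in each library, also an alternative added after the data were seen, 213 genes were called, of which 172 were among the 187, and the higher share went from 46.0% to 35.2%. Levels in CPM are not per length and are compared only within a gene.

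**Figure D5:**
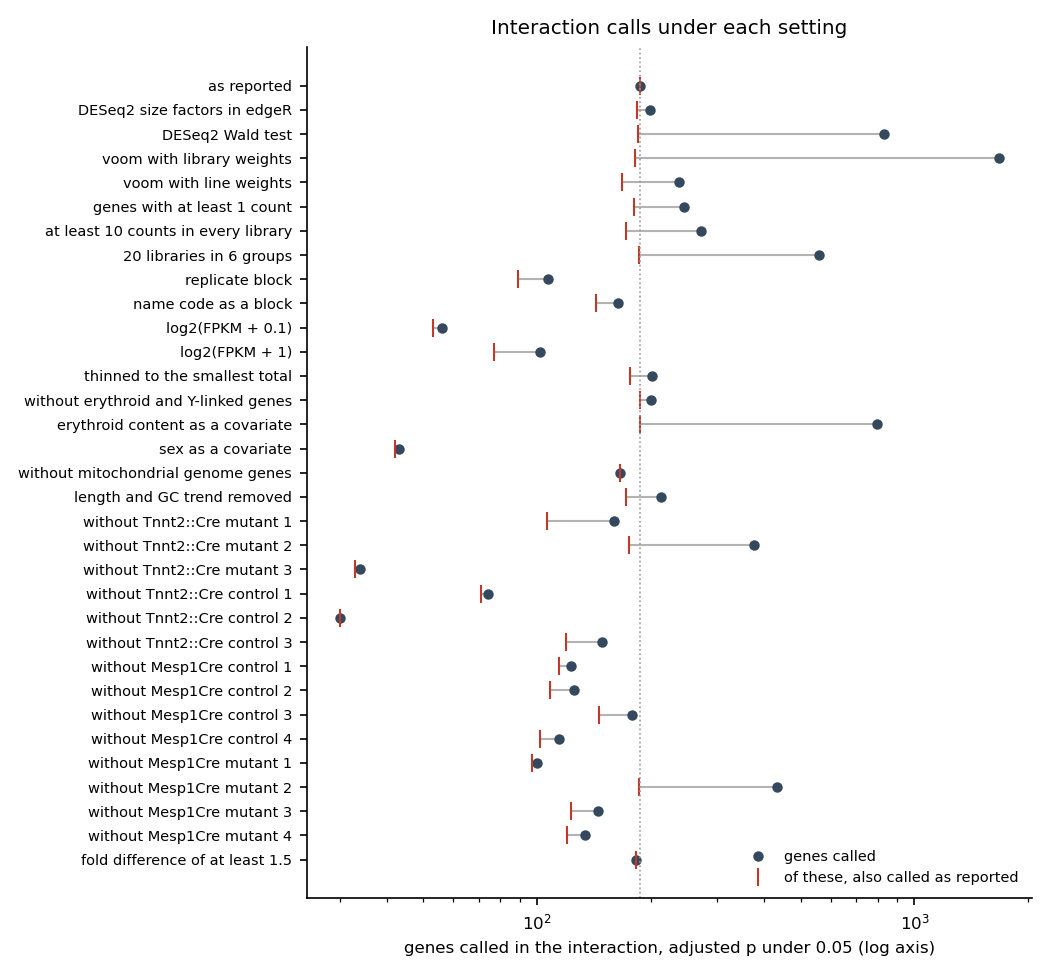
Each line is 1 setting, its dot the number of genes called in the interaction on a log axis and its red tick the number of those that were also called as reported. The count of 187 (dotted line) went down to 30 and 34 without 1 Tnnt2::Cre library and up to 1675 with voom library weights, where 182 of the 187 were among the calls.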

How the data were processed

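Whole embryonic hearts were profiled by RNA-seq. Per the labels the reads were aligned to mm9, and the submitters' processing notes name TopHat2 2.0.8b. The authors assigned reads to genes and deposited raw counts, unscaled, for 33495 genes. FPKM values of the same genes, which the authors scaled by gene length and library total, were used only as an alternative on the log2 scale. The strand setting is not given in the sources used here. Labels and paper differ on library kit and instrument. The 20 variance-corrected columns were not used here.

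Samples were grouped by title. Counts of the 14 libraries entered 1 edgeR 4.0.16 fit (R 4.3.3) of 4 groups with no covariate: filterByExpr, TMM and the quasi-likelihood test of each effect and of their difference, with Benjamini-Hochberg adjustment at 0.05. The standard error is the log2 value divided by the square root of F, and the common biological coefficient of variation was 0.252. Tested on simulated data for 17372 genes, the interaction test recovered 41 of 100 genes changed 2-fold and 72 of 100 changed 4-fold.

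Named genes were Kmt2d and, among interaction calls whose log2 CPM averaged 3 or more, not on the Y chromosome or mitochondrial genome and not clones or predicted genes, those of largest interaction in each class (6 higher and 6 lower for Mesp1Cre alone, up to 4 for other classes, up to 6 of opposite sign with an unadjusted p under 0.05 in each line), the 2 of smallest p in each of 26 lists, and 3 rises and 3 falls shared by both lines, 1 of which is not reported here. Other genes (Ddit4, Kdm3a, Bnip3l, Eln, Erbb3, Nmd3, Cirh1a, Nop2, Npm1, Gnl3, Hspd1, Chchd4, Dlst, Pdha1, Idh3a and the mitochondrial genome) were chosen after their values were seen, as were 6 added lists. The members, lists and tests were chosen with earlier results of these data known. Promoters are from RefSeq (GRCm38.p6), and exon overlaps from the mm9 annotation. Sex was called male at 10 CPM of 4 Y-linked genes. Alternatives were DESeq2 1.42.0, voom of limma 3.58.1, other filters, blocks and covariates, log2(FPKM + 0.1) and log2(FPKM + 1), thinning to 21727258 reads and leaving out each library. The right ventricle and outflow tract libraries, whose labels and column names disagree on genotype, entered 1 alternative alone.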

Additional observations from a re-analysis of the deposited data

Results flagged for a closer look

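The difference between the lines was tested directly as an interaction, and 187 genes passed, among them all 28 genes below. Interactions above 0 (log2) were Mt1 2.91, Eno3 1.33, Kdr 0.94, Mybphl 1.498, Loxl2 1.39, Cxcl12 1.71, Ypel3 1.84, Cacna2d2 1.09, Rgs5 3.20, Cacna1h 1.47, Rb1 1.53, Clcn3 1.05, Sox7 1.18, Vldlr 1.92, Nrn1 2.49, Ankrd37 2.04, Bcl11a 1.86, Aplnr 3.15 and Bcl2l11 0.94. Interactions below 0 were Vnn1 -2.23, Lyz2 -2.66, Nppb -2.63, Gyk -0.93, Bmp10 -1.90, Abra -1.58, Akap6 -1.41, Gpatch4 -1.38 and Cycs -0.92.

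In the Mesp1Cre groups of 4, 7 single values stood far from the other 3 by Dixon's test, of 74 groups checked, where chance gives about 1 in 20. They were Mt1 in mutant 1 (53.02 CPM), Lyz2 in control 4 (14.003 CPM), Sox7 in control 2 (30.018 CPM), Aplnr in mutant 4 (23.1 CPM), Pcp4l1 in control 4 (17.6 CPM), the total of control 1 (28790705 reads) and the mitochondrial genome share of control 4 (22.0%).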

How the results depend on the processing

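All 187 interaction calls kept their sign wherever they were tested, but the number called varied. By setting, the interaction, the Mesp1Cre effect, the Tnnt2::Cre effect, the calls in Mesp1Cre alone, those in Tnnt2::Cre alone and those of opposite sign are given where they moved by over 1.5 times from 187, 2444, 25, 167, 6 and 139. With the DESeq2 Wald test there were 830 interaction calls, 188 in the Tnnt2::Cre effect, 688 and 39 in 1 line alone and 651 of opposite sign. With voom library weights, where Tnnt2::Cre mutant 3 took a weight of 8.93, these were 1675, 2974, 720, 517 and 1404, and with 20 libraries in 6 groups 559, 82, 487, 16 and 449. With voom line weights the Mesp1Cre effect was 1602, the Tnnt2::Cre effect 146 and the Tnnt2::Cre-alone class 17. With genes of at least 1 count the last 2 were 61 and 11, and with at least 10 counts in every library 211 genes were of opposite sign. On log2(FPKM + 0.1) there were 56 interaction calls, 49 and 3 in 1 line alone and 41 of opposite sign. On log2(FPKM + 1) there were 102, 46 in the Tnnt2::Cre effect, 79, 12 and 70. With erythroid content as a covariate there were 796, 1431 in the Mesp1Cre effect, 531, 15 and 683, and with sex 43, 40, 2 and 32. Asking for a 1.5-fold change left 1396 genes in the Mesp1Cre effect. The cause was not tested for any of these.

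With the replicate number as a block, 107 genes were called in the interaction (102 in Mesp1Cre alone, 2 in Tnnt2::Cre alone, 70 of opposite sign). Same-numbered mutants and controls correlated at -0.036 to 0.059 in Mesp1Cre and -0.028 to 0.063 in Tnnt2::Cre. Others correlated at -0.065 to 0.046 and -0.069 to 0.040. Same-numbered Mesp1Cre mutants and controls also had the same code in their names. Correlations this small, from groups of 3 or 4, cannot tell whether the numbers pair the libraries.

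Leaving out each library in turn gave 30 to 431 interaction calls, 1390 to 2804 in Mesp1Cre, 12 to 348 in Tnnt2::Cre, 28 to 401 in Mesp1Cre alone, 1 to 42 in Tnnt2::Cre alone and 17 to 330 of opposite sign. The interaction count moved by over 1.5 times without Tnnt2::Cre mutant 2 (375), mutant 3 (34), control 1 (74) and control 2 (30), and without Mesp1Cre control 1 (123), control 4 (114), mutant 1 (100) and mutant 2 (431). The Tnnt2::Cre effect was 348 without mutant 1, 15 without mutant 2, 12 without mutant 3 and 13 without control 1, and the Mesp1Cre effect 1390 without mutant 1. Of the named genes' interactions under the alternatives, 872 stayed on their side of the threshold, 214 lost the call and 2 changed sign, both for genes not called: Pcp4l1 (-0.076 to 0.27 with libraries left out) and Kmt2d (-0.070 without the length and GC trend). The Tnnt2::Cre line had 3 libraries a group, and the interaction recovered 41% of simulated 2-fold differences, so many differences of that size would be missed.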
